A study of Mus musculus with 4 samples.

Results

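The genes described are 38 imprinted genes of the mouse, given as a list of symbols. Of these, 36 matched by symbol a gene ID among the 39179 genes counted in each of 4 embryos, and 35 of them passed the filter on low counts that left 15822 genes for testing. The list was not chosen on values of these embryos, but it was proposed with results of these data in view. Usp29, with sums of 12 (FLAG-Lhx1) and 7 counts (FLAG-Lhx1-mt), was too scarce for testing. Snrpn and Kcnq1ot1 had no ID of their own in the files. A gene model at the Snrpn locus, Gm38393, was counted and is described apart, outside all counts of members.

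The embryos were chimeras, made by injecting embryonic stem cells (ESCs) into host embryos of an ARC x RLZRFP cross at the 8-cell stage. The ESCs, kept in 2i medium, carried a doxycycline-inducible and FLAG-tagged LHX1, a homeodomain transcription factor of the head organizer. In 2 embryos (FLAG-Lhx1) this was the form the labels give without a mark, and in the other 2 (FLAG-Lhx1-mt, also written FLAG-Lhx1-Δ) it was an altered form, whose change is not described in the sources used here, like the promoter and the number of ESC clones. All 4 received doxycycline through the drinking fluid of the foster mother (2 mg/mL, 5% sucrose) for 24 hours; they were taken at E8.5, delayed, and staged as E7.75. Both groups thus share the ESC origin, the 2i culture and the drug, and no embryo without ESCs or without induction is among them. Each library came from 1 whole embryo and holds RNA of ESC descendants and of host cells, which the counts do not separate.

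An imprinted gene is transcribed mainly from the copy inherited from the mother or mainly from that inherited from the father. Most imprinted genes lie in clusters, each governed by a stretch of DNA that is methylated in only the egg or only the sperm and keeps that mark after fertilization. Several members set growth: IGF2 promotes it, IGF2R removes IGF2, and CDKN1C, PHLDA2 and GRB10 restrain it. Cultured ESCs, those in 2i medium among them, are known to lose part of these marks. Counts per gene add both parental copies, so they show the amount of RNA and not which copy made it. In a whole embryo, fewer cells of a type and less RNA per cell cannot be told apart.

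The promoters of 3 called members and of the Snrpn locus are shown to set their content of CG pairs, the letters that can carry DNA methylation, side by side. Each window runs from 250 bases before a RefSeq transcription start to 50 after it (GRCm38.p6), 5′ to 3′ on the gene's strand. Capitals mark TGCCGC, read on either strand, the hexamer bound in its methylated form by ZFP57, a zinc finger protein that protects imprints.
Meg3 (chr12:109540746-109541045, plus strand): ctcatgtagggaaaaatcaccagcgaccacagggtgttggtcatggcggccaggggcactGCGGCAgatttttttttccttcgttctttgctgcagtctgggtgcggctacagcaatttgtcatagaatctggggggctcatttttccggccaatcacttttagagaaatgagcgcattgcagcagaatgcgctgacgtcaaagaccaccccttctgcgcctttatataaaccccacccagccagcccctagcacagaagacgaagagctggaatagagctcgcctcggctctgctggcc
Rian (chr12:109603695-109603994, plus strand): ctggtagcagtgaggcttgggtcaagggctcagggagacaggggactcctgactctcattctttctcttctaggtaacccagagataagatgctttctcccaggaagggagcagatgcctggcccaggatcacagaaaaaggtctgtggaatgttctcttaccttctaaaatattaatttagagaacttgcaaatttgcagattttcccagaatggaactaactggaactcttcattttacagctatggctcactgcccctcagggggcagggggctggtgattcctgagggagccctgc
Igf2r (chr17:12769657-12769956, minus strand): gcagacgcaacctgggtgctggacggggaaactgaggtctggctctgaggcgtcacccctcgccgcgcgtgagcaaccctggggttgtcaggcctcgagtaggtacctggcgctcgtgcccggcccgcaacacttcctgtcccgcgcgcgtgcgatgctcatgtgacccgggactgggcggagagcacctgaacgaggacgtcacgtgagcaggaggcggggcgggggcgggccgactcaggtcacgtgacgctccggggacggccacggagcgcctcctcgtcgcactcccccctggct
Snrpn (chr7:60005150-60005449, minus strand): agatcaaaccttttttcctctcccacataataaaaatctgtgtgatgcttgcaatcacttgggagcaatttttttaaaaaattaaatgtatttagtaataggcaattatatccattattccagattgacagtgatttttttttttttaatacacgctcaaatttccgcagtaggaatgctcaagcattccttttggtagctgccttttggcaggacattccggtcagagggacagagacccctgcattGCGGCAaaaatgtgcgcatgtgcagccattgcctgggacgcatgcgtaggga
The Igf2r window held 34 CG pairs, the Meg3 window shown 13, the Snrpn window shown 7 and that of Rian 0. The hexamer occurred 1 time each in the Meg3 and Snrpn windows shown and was not found in the other two. RefSeq gives Meg3 and Snrpn further starts, and of each gene the window shown is the one with the hexamer and the most CG pairs, picked after the search. The other Meg3 window held 0 hexamers and 1 CG pair, and the other 3 Snrpn windows held 0 hexamers and 4, 3 and 2 CG pairs. Windows of the called members Ndn and Igf2 are not shown, and none was at hand for Cdkn1c. That of Ndn held 0 hexamers and 11 CG pairs. Those of Igf2 held 2 to 24 CG pairs, of which that with 14 also held 1 hexamer. RefSeq windows were at hand for 30 of the 38 listed genes, 49 windows in all; 24.5% of them held the hexamer, against 11.6% of the 32851 windows of all genes. The median number of CG pairs was 16 in the members' windows and 7 in all windows. Windows of the same gene can overlap, as those of Mest do, so a hexamer can be counted more than once. The hexamer itself holds a CG pair, and its share was not compared at equal CG content. These matches describe the letters only, and methylation was not measured here.

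Cdkn1c, Igf2, Igf2r and Ndn were higher in FLAG-Lhx1 embryos, and the long noncoding RNAs Meg3 and Rian were lower. The changes ran from 2.78-fold (Cdkn1c) to 1.5-fold (Ndn) upward, and were 2.12-fold (Meg3) and 1.88-fold (Rian) downward. These 6 members, 17.1% of the 35 tested, passed edgeR's quasi-likelihood test at an adjusted p under 0.05 over all genes, a threshold that 6.17% of all tested genes passed. Higher calls made up 2.62% of all tested genes and lower calls 3.55%. The groups did not overlap in 21 of 35 members (60% of them), against 52.2% of all tested genes. Leaving out 1 embryo moved the counts. Higher calls numbered 2 when FLAG-Lhx1 replicate 2 was dropped and 9 when it was FLAG-Lhx1-mt replicate 1. Lower calls numbered 5 when it was FLAG-Lhx1-mt replicate 2.

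By parental origin, 2 of 12 maternally expressed members rose (Cdkn1c and Igf2r), 2 fell (Meg3 and Rian) and 8 did not pass the test. Of 21 tested paternally expressed members, Igf2 and Ndn rose, none fell and 19 did not pass. The Snrpn locus model Gm38393, also of the paternal class but outside these counts and medians, fell (log2 fold -0.88, edgeR adjusted p = 0.00299). The median log2 fold was -0.18 over the maternally and 0.17 over the paternally expressed members, beside 0.01 over all tested genes. The maternal folds ran from -1.08 (Meg3) to 1.48 (Cdkn1c), with 6 above and 6 below 0. The paternal folds ran from -1.39 (Nap1l5) to 1.34 (Plagl1), with 15 above and 6 below 0. Of all tested genes, 8051 lay above and 7771 below 0. The paternal class includes Sfmbt2, Gab1 and Jade1, imprinted in extraembryonic tissue, and Inpp5f, of which a short form is imprinted. The plot of log2 folds shows both directions within each class.

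**Figure D1:**
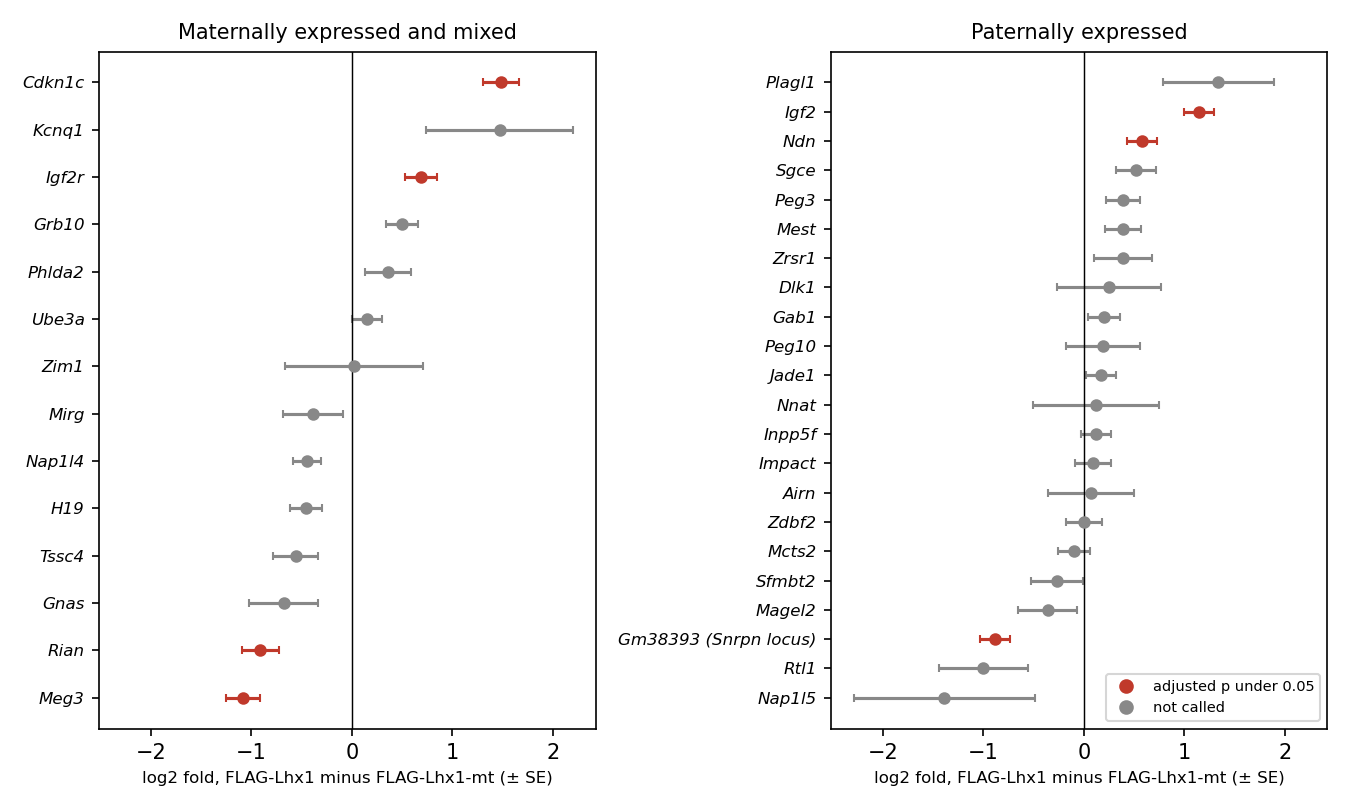
Log2 fold between FLAG-Lhx1 and FLAG-Lhx1-mt embryos (2 each) for each tested imprinted gene, with edgeR's standard error as bars; left, maternally expressed genes and those with a mixed pattern, right, paternally expressed genes. Red points passed an adjusted p of 0.05; Cdkn1c (1.48), Igf2 (1.15), Igf2r (0.69) and Ndn (0.58) lie above 0, and Meg3 (-1.08), Rian (-0.91) and the Snrpn locus model Gm38393 (-0.88) below.

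Markers of the visceral endoderm, the outer layer of the egg cylinder in which several imprinted genes are also active, differed between the groups as well. All 10 tested markers had a negative log2 fold, and 5 were called lower in FLAG-Lhx1 (Afp, Apoa1, Apoa4, Cubn and Rbp4). Of all 15822 tested genes, 3.55% were called lower, 2.62% were called higher and 7771 had a negative log2 fold. Summed levels of marker lists are given in CPM (a gene's count relative to the TMM-scaled total of its library). The visceral endoderm markers summed to 1759 to 2008 CPM in FLAG-Lhx1 and 3021 to 3559 CPM in FLAG-Lhx1-mt. Their part in the values of the imprinted genes was not tested. Of 10 trophoblast markers, 6 were tested and none was called, the summed level was 21.4 to 24.9 CPM against 28.5 to 28.6 CPM while the median log2 fold was 1.04, and Prl3d1, Prl2c2, Tpbpa and Psg17 had at most 10 counts in every embryo. Of primitive blood, the embryonic globin genes Hbb-bh1, Hba-x and Hbb-y had at most 10 counts in every embryo, while the transcription factor genes Gata1 (44 to 108 counts), Runx1 (27 to 117) and Tal1 (27 to 104) were present and not called (edgeR adjusted p = 0.778, 0.378 and 0.262). Klf1, a regulator of red cells, had 39 counts in FLAG-Lhx1-mt replicate 2 and at most 4 in the others. Of 8 markers of the embryo proper at this stage, all were tested; Sox1, Sox2 and Hesx1 rose and T and Mesp1 fell. Of the 8 allantois markers Ahnak rose (log2 fold 1.52 ± 0.26, SE, edgeR adjusted p = 0.00357). Among the 6 tested on that list, 2 had a negative log2 fold, and the median was 0.20. Srgn, a parietal endoderm marker, fell (-1.76 ± 0.28, adjusted p = 0.00194). It was the only 1 of 6 parietal endoderm markers with a negative log2 fold, and their median was 0.08.

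FLAG-Lhx1-mt replicate 2 stood apart in part of the listed genes of the maternal decidua and adult blood. It had 52 counts of the decidual hormone gene Prl8a2, 76 of the adult globin gene Hba-a1 and 34 of Hbb-bs, against at most 6 of each in any other embryo. The rest of the list did not stand out in that embryo. Hbb-bt had at most 2 counts in any embryo. Pgr and Cryab were both at 0.703 CPM in FLAG-Lhx1-mt replicate 2, against 0.687 to 1.76 CPM and 1.2 to 2.39 CPM in the others. The whole list of 6 genes summed to 6.65 CPM there and to 2.75 to 4.43 CPM in the others. When this embryo was left out, Cdkn1c, Igf2, Igf2r, Ndn, Meg3 and Rian were all still called.

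Igf2 and H19 are neighbours on chromosome 7 that compete for the same enhancers, the father's copy making the growth factor IGF2 and the mother's the noncoding RNA H19. Igf2 (ENSMUSG00000048583, 142650766 to 142666816 of GRCm38) measured 66.7 and 70.1 CPM in the FLAG-Lhx1 embryos against 30.7 and 31.0 CPM with the altered form (here and below, replicate 1 comes before replicate 2). The embryos of each group lay close together and the groups far apart (1.15 ± 0.15 on the log2 scale, SE; edgeR adjusted p = 0.000512). The call held under all 12 other settings, with log2 folds of 1.09 to 1.20. The gene model Gm49394 on the same strand, which was not counted under an ID of its own, covers 62.8% of the exon bases of Igf2, so reads of the 2 cannot be told apart. H19 (ENSMUSG00000000031, 142575529 to 142578143) went the other way in value, with 84.6 and 63.5 CPM in FLAG-Lhx1 against 104 and 100 CPM in FLAG-Lhx1-mt. The groups did not overlap, but the log2 fold of -0.46 ± 0.16 (SE) was not called (edgeR adjusted p = 0.103). Its call appeared with no count filter and when replicate 1 of FLAG-Lhx1, or replicate 2 of the altered form, was dropped. Per kilobase of exon, Igf2 reached 0.339 and 0.474 of the H19 level in the FLAG-Lhx1 embryos and 0.127 and 0.133 of it in the FLAG-Lhx1-mt embryos. That ratio, like the other ratios below picked after values were seen, was higher in both FLAG-Lhx1 embryos, a log2 difference of 1.63. An exact two-sided permutation test of 2 against 2 cannot give a p below 0.333, which is the value found. Most ratios formed separated the groups, as 52.2% of all tested genes did singly. The ratio of Mest to its neighbour Copg2 did not, at 4.76 and 6.41 in FLAG-Lhx1 and 7.63 and 4.88 in FLAG-Lhx1-mt.

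Igf2r, made from the mother's copy on chromosome 17 (ENSMUSG00000023830, 12682406 to 12769664), encodes the receptor that carries IGF2 to lysosomes. It was at 70.3 and 81.1 CPM in FLAG-Lhx1 against 42.1 and 51.7 CPM in FLAG-Lhx1-mt. Both FLAG-Lhx1 embryos were above both others (log2 fold 0.69 ± 0.16, SE, edgeR adjusted p = 0.0196). Dropping FLAG-Lhx1 replicate 2 ended the call (0.59, with an adjusted p of 0.149). Airn, the paternal antisense RNA that silences Igf2r on the father's copy, was counted at 1.56 to 2.95 CPM over the 4 embryos (log2 fold 0.07 ± 0.43, edgeR adjusted p = 0.952). The annotation gives it 3597 bases of exon between 12741311 and 12860136. Airn RNA from outside the counted exons would not show in this value. The RNAs of ligand and clearance receptor were thus both higher in FLAG-Lhx1. Per kilobase, Igf2 was at 1.54 and 1.40 times Igf2r there and at 1.19 and 0.976 times in FLAG-Lhx1-mt.

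Of 12 other genes of the IGF pathway, all tested, 11 did not pass the test, which 6.17% of all tested genes passed. The 1 that did was Igfbp2, the gene of a protein that binds IGF2 outside cells. It fell from 148 and 177 CPM in FLAG-Lhx1-mt to 82.2 and 74.3 CPM in FLAG-Lhx1 (log2 fold -1.06 ± 0.15, SE, edgeR adjusted p = 0.000885). The receptor gene Igf1r was at 0.816 to 1.79 CPM and the insulin receptor gene Insr at 23.2 to 26.5 CPM, and neither was called (adjusted p = 0.908 and 0.744).

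In the Kcnq1 cluster of chromosome 7, whose coding members are classed here as maternally expressed, Cdkn1c was the 1 member called. Which copy made their RNA in these embryos was not measured. This gene (ENSMUSG00000037664, 143458339 to 143461050) encodes p57, an inhibitor of the cell cycle. Its level was 47.7 and 46.7 CPM in FLAG-Lhx1, and 19.4 and 14.6 CPM in FLAG-Lhx1-mt. This was the member with the smallest p (log2 fold 1.48 ± 0.18, SE; edgeR adjusted p = 0.000289), and its call held under all 12 other settings (1.27 to 1.68). An annotated gene on the other strand, Gm44732, covers 30.7% of its exon bases and was not counted as a gene of its own, so some reads may belong to it.

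Phlda2, a brake on placental growth, was the most abundant member by far, with 1185 CPM per kilobase over the 4 embryos. It had 1298 and 1685 CPM in FLAG-Lhx1 against 1523 and 807 CPM in FLAG-Lhx1-mt. The FLAG-Lhx1-mt embryos stood on both sides of the lower FLAG-Lhx1 embryo, and Phlda2 was not called (log2 fold 0.36 ± 0.23, SE, edgeR adjusted p = 0.404). Without FLAG-Lhx1-mt replicate 1 it was called at 0.88, and without FLAG-Lhx1-mt replicate 2 its fold was -0.04. Nap1l4, a histone chaperone gene at the edge of the cluster, had 99.8 and 97.6 CPM in FLAG-Lhx1 against 139 and 130 CPM in FLAG-Lhx1-mt, without overlap but also without a call (log2 fold -0.45 ± 0.14, adjusted p = 0.0722). It was called by DESeq2, with no count filter and without FLAG-Lhx1-mt replicate 2. Per kilobase, Cdkn1c was at 0.726 of the Nap1l4 level in both FLAG-Lhx1 embryos and at 0.212 and 0.170 in the FLAG-Lhx1-mt embryos. Tssc4 (-0.56 ± 0.22, adjusted p = 0.163) was not called, and the potassium channel gene Kcnq1 was barely present, its counts summing to 45 (FLAG-Lhx1) and 21 (FLAG-Lhx1-mt) (1.47 ± 0.73, adjusted p = 0.262).

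On chromosome 12 the mother's copy makes a row of noncoding RNAs, Meg3, Rian and Mirg, while the father's makes Dlk1, a signalling protein of the Notch family, and Rtl1, a protein derived from a retrotransposon. Meg3 (ENSMUSG00000021268, 109541001 to 109571726) had 19.7 and 23.5 CPM in FLAG-Lhx1 against 44.8 and 46.4 CPM in FLAG-Lhx1-mt. Both groups were tight and did not overlap (-1.08 ± 0.17 on the log2 scale, SE; edgeR adjusted p = 0.00199). The call held under all 12 other settings (-1.32 to -0.99). Rian (ENSMUSG00000097451, 109603940 to 109661716), the host of many small nucleolar RNAs, whose window shown above has no CG pair, had 16.3 and 19.3 CPM against 33.0 and 34.0 CPM. Its fall was like that of Meg3 in size (-0.91 ± 0.18, adjusted p = 0.00871) and missed the threshold once FLAG-Lhx1 replicate 1 was dropped (-0.83, adjusted p = 0.0614).

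Mirg, a microRNA host further downstream, had 5.84 and 7.68 CPM in FLAG-Lhx1 and 6.44 and 11.1 CPM in FLAG-Lhx1-mt. Its groups overlapped and it was not called (-0.39 ± 0.30, SE, edgeR adjusted p = 0.492). The ratio of Rian to Meg3 per kilobase was 0.823 and 0.818 with FLAG-Lhx1 and 0.731 and 0.728 with the altered form. It rests on 380 to 1065 counts of Rian and 461 to 1451 of Meg3 an embryo, and its counting error was not worked out. The ratio of Mirg to Meg3 was 0.737 and 0.813 against 0.356 and 0.595. Of the paternal genes, Dlk1 was at 0.895 to 1.79 CPM and Rtl1 at 1.07 to 3.55 CPM over the embryos. Neither was called (adjusted p = 0.831 and 0.203). The fold of Rtl1 was negative and lay between -1.46 and -0.65 in the 12 other settings, and that of Dlk1 was 0.25 ± 0.52.

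**Figure D2:**
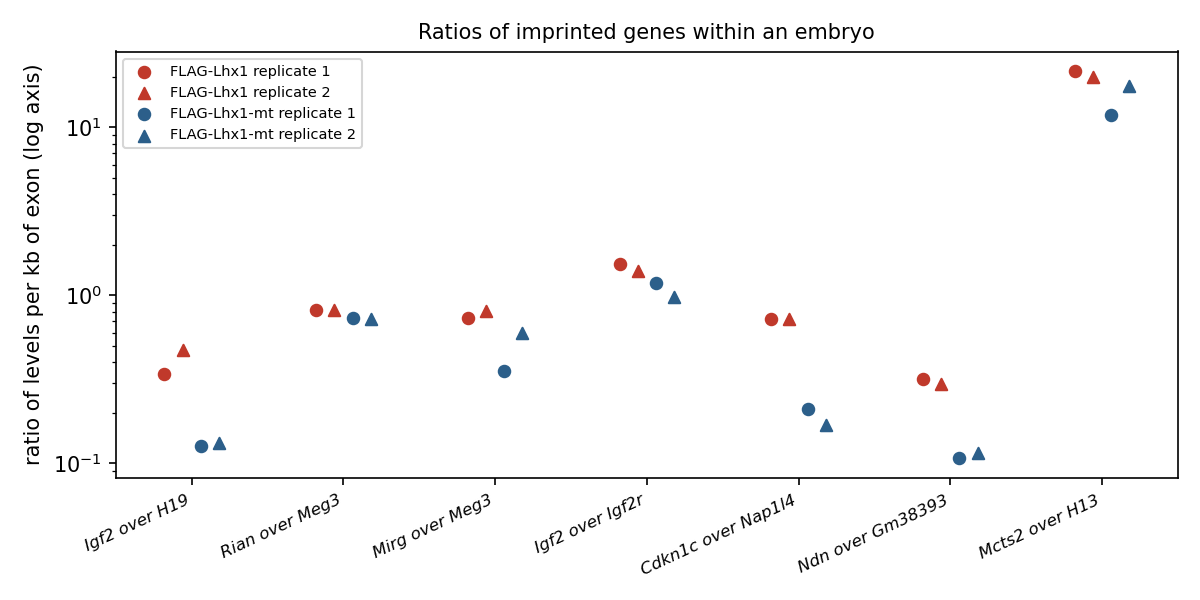
Ratio of 2 genes' levels within each embryo, both as CPM per kilobase of exon, on a log axis; red, FLAG-Lhx1, blue, FLAG-Lhx1-mt, circles replicate 1 and triangles replicate 2. The ratio of Igf2 to H19 was 0.339 and 0.474 in FLAG-Lhx1 and 0.127 and 0.133 in FLAG-Lhx1-mt. That of Ndn to Gm38393 was 0.317 and 0.298 against 0.107 and 0.116. The ratios shown were picked after values were seen. That of Mest to Copg2, whose groups overlapped, is not among them.

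The Snrpn and Ube3a cluster of chromosome 7, whose loss in humans underlies Prader-Willi and Angelman syndromes, held a call in each direction. The counted model Gm38393 (ENSMUSG00000000948, 59974149 to 60005064) covers 27.3% of the exon bases that the annotation gives Snrpn and 100% of those of Snurf, the small gene joined to it; Snrpn encodes a protein of the splicing machinery. It had 275 and 317 CPM in FLAG-Lhx1 against 578 and 511 CPM in FLAG-Lhx1-mt. The FLAG-Lhx1 embryos were far below the others (-0.88 ± 0.15 on the log2 scale, SE; edgeR adjusted p = 0.00299). The call held under all 12 other settings (-1.18 to -0.80). Because the sources used here do not name the authors' annotation release, which exons were counted under this ID is not certain.

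Ndn (ENSMUSG00000033585, 62346569 to 62350262), a paternal gene of the same cluster that encodes the growth suppressor necdin, was higher instead. It had 61.8 and 66.8 CPM in FLAG-Lhx1 against 43.8 and 42.0 CPM in FLAG-Lhx1-mt, again without overlap (log2 fold 0.58 ± 0.15, SE, edgeR adjusted p = 0.0344). The call was lost in 5 of 12 other settings, namely when either FLAG-Lhx1 embryo was dropped, with library totals only, with no count filter and with offsets for length and GC content, while the fold stayed at 0.50 to 0.64. Magel2, a relative of Ndn beside it, was not called (-0.36 ± 0.29, adjusted p = 0.507). Ube3a is a ubiquitin ligase gene whose paternal copy is silent in neurons but not in most other cells. It had 135 and 109 CPM in FLAG-Lhx1 and 103 and 117 CPM in FLAG-Lhx1-mt, with overlap and no call (0.15 ± 0.15, adjusted p = 0.619). Genes annotated on the other strand, Snhg14 among them, cover 27.3% of the Ube3a exon bases. They were not counted as genes of their own, so some reads may belong to them.

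The remaining paternally expressed genes did not pass the test. Peg3, a zinc finger gene and the second most abundant counted member by CPM, had 532 and 527 CPM in FLAG-Lhx1 against 483 and 323 CPM in FLAG-Lhx1-mt (log2 fold 0.39 ± 0.17, SE, edgeR adjusted p = 0.208). The FLAG-Lhx1 embryos were nearly equal, and the spread lay between the FLAG-Lhx1-mt embryos. Mest, a hydrolase gene of mesoderm, had the same shape, at 44.1 and 46.5 CPM against 40.1 and 28.9 CPM (0.39 ± 0.18, adjusted p = 0.222). Sgce, which encodes epsilon-sarcoglycan, varied in both groups, at 34.1 and 49.8 CPM against 33.2 and 25.3 CPM (0.52 ± 0.20, adjusted p = 0.147). Mest shares 23.1% of its exon bases with Copg2, its antisense neighbour, so its value is uncertain. Peg3, Mest, Sgce, Phlda2 and Plagl1 were the members that became called as higher when FLAG-Lhx1-mt replicate 1 was left out. Plagl1, a zinc finger gene known as a regulator of other imprinted genes, had count sums of only 104 (FLAG-Lhx1) and 45 (FLAG-Lhx1-mt) (1.34 ± 0.55, adjusted p = 0.166).

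Impact, a regulator of translation, had 140 and 213 CPM in FLAG-Lhx1, on both sides of the 178 and 153 CPM of FLAG-Lhx1-mt (0.09 ± 0.18, SE, edgeR adjusted p = 0.819). Retrogenes that arose inside introns of other genes were not called either. Mcts2 had 60.4 and 59.6 CPM against 56.1 and 72.8 CPM (-0.10 ± 0.16, adjusted p = 0.766), and Zrsr1 4.38 to 7.63 CPM over all embryos (0.39 ± 0.29, adjusted p = 0.489). Nap1l5 had 16 counts in FLAG-Lhx1, all of them in replicate 1, and 46 in FLAG-Lhx1-mt. H13, the gene that holds Mcts2 in an intron, fell from 46.0 and 40.3 CPM in FLAG-Lhx1-mt to 27.1 and 29.2 CPM in FLAG-Lhx1 (-0.62 ± 0.17, adjusted p = 0.0401), a call that ended with upper-quartile scaling and when either FLAG-Lhx1 embryo (-0.60 for replicate 1, -0.66 for replicate 2) or FLAG-Lhx1-mt replicate 1 (-0.53) was dropped.

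Inpp5f, a phosphatase gene with an imprinted short form, and Zdbf2, a zinc finger gene, were not called, with log2 folds of 0.12 ± 0.15 and 0.00 ± 0.18 (SE, edgeR adjusted p = 0.719 and 0.999). Sfmbt2, Gab1 and Jade1 are imprinted in extraembryonic tissue through histone rather than DNA marks. Jade1 had 64.5 and 59.1 CPM in FLAG-Lhx1 and 52.0 and 57.8 CPM in FLAG-Lhx1-mt, and none of these 3 genes was called (log2 fold -0.27 ± 0.26 for Sfmbt2, 0.20 ± 0.16 for Gab1 and 0.17 ± 0.15 for Jade1; adjusted p = 0.603, 0.523 and 0.570). Peg10, a retrotransposon-derived gene needed for the placenta, was low at 2.44 to 4.01 CPM (adjusted p = 0.817). Nnat, a neuronal gene, had 70 counts in each group together, but 2.37 and 0.407 CPM in FLAG-Lhx1.

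Grb10, an adaptor that dampens insulin and IGF signalling and is maternally expressed outside the brain, had 348 and 289 CPM in FLAG-Lhx1 against 199 and 250 CPM in FLAG-Lhx1-mt. The groups did not overlap, and the difference missed the threshold (0.50 ± 0.16 on the log2 scale, SE; edgeR adjusted p = 0.0721). It was called without FLAG-Lhx1-mt replicate 2 (0.66) and with the replicate numbers as a block. Gnas, a complex locus with maternal, paternal and biallelic transcripts, was at 2.54 to 5.20 CPM (-0.68 ± 0.34, adjusted p = 0.257). It shares 22% of its exon bases with the antisense genes Nespas and Gm20721. Zim1 was scarce, with count sums of 27 (FLAG-Lhx1) and 32 (FLAG-Lhx1-mt).

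**Figure D3:**
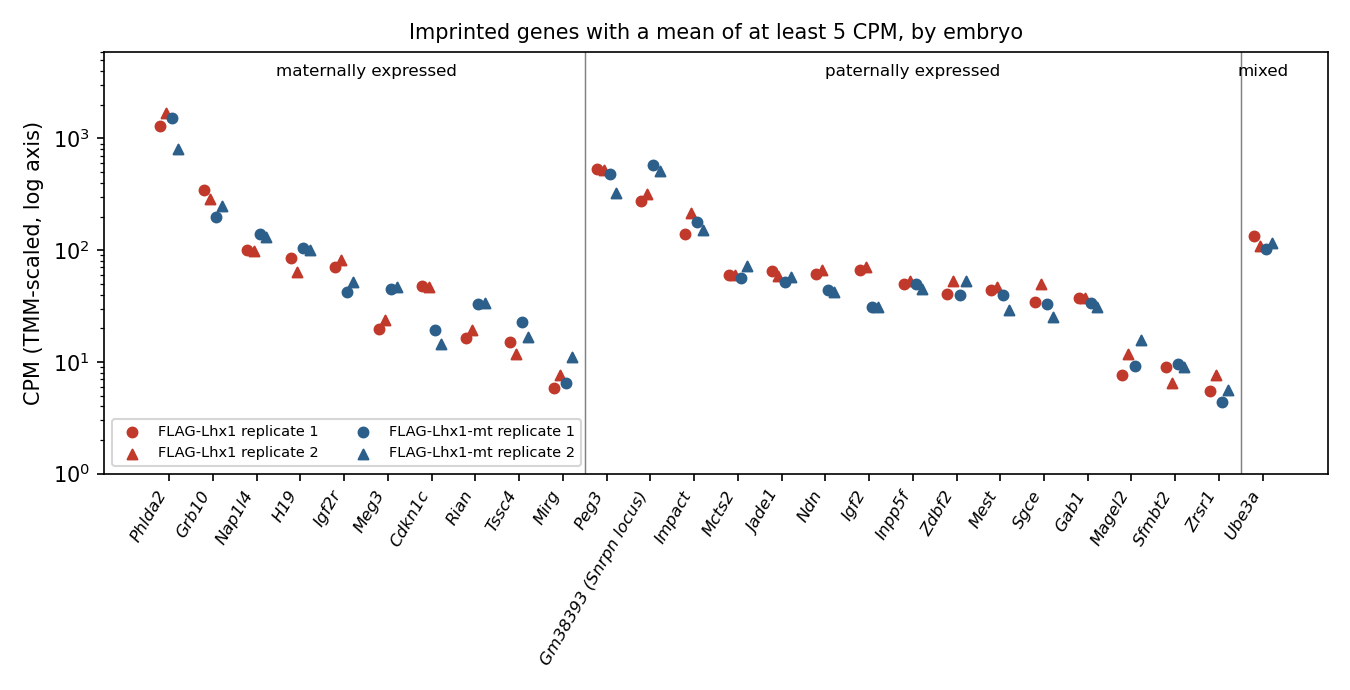
Level of each imprinted gene with a mean of at least 5 CPM in each of the 4 embryos, in TMM-scaled CPM on a log axis; red, FLAG-Lhx1, blue, FLAG-Lhx1-mt, circles replicate 1 and triangles replicate 2. Phlda2 leads at 807 to 1685 CPM. Among called genes, red points lie above blue for Cdkn1c, Igf2, Igf2r and Ndn and below for Meg3, Rian and Gm38393. Uncalled genes such as Grb10 (red above) and Nap1l4 (red below) separated too, as did 52.2% of all tested genes.

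The spread between the embryos of a group set how much could be seen. Over the 25 members with a mean of at least 5 CPM, the median size of the log2 ratio of replicate 1 to replicate 2 was 0.25 (FLAG-Lhx1) and 0.29 (FLAG-Lhx1-mt), beside 0.17 and 0.20 over the 9105 tested genes at that level. None of the 25 differed by more than 2-fold within a group, a limit that 0.505% and 1.53% of those 9105 genes passed. The widest was Phlda2 in FLAG-Lhx1-mt (0.92), and in FLAG-Lhx1 the widest were Magel2 (-0.62) and Impact (-0.61). Over all 35 tested members the medians were 0.38 and 0.36, against 0.24 and 0.28 over all tested genes. With no count filter this order turned, the members being at 0.37 and 0.36 and all genes at 0.39 and 0.43. Members past 2-fold between the embryos of a group were all below 2 CPM on average. They were Nap1l5, Nnat and Kcnq1 in FLAG-Lhx1 (3 of 35, against 7.16% of all tested genes) and Plagl1 in FLAG-Lhx1-mt (1 of 35, against 9.94%). Replicate 1 exceeded replicate 2 in 18 of 35 members in FLAG-Lhx1 and in 19 of 35 in FLAG-Lhx1-mt. Among all 15822 tested genes it did so in 7852 and 8199. TMM scaling evens out such counts, so they cannot show whether an embryo was high or low throughout. The 36 matched members summed to 3312 and 3711 CPM in FLAG-Lhx1 and to 3319 and 2491 CPM in FLAG-Lhx1-mt. Phlda2 alone made 1298 and 1685 CPM, and 1523 and 807 CPM, of these sums.

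**Figure D4:**
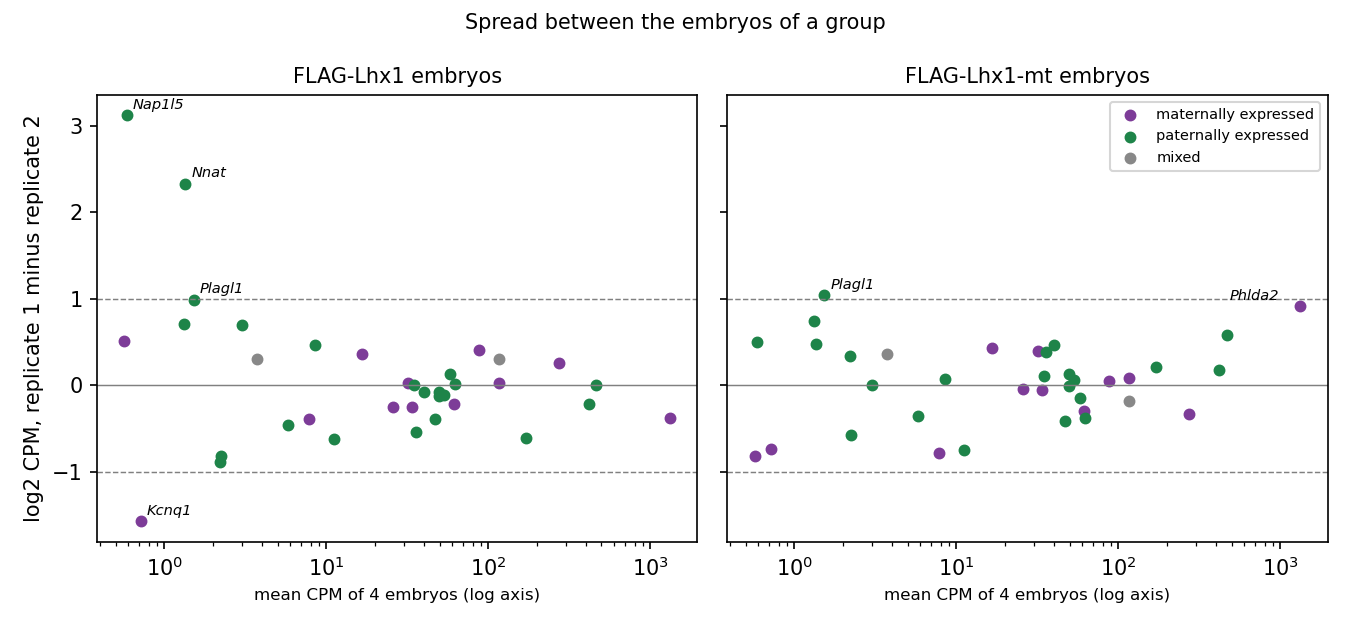
Log2 CPM of replicate 1 minus replicate 2 for each tested imprinted gene and Gm38393, against the gene's mean CPM over 4 embryos (log axis), in FLAG-Lhx1 (left) and FLAG-Lhx1-mt (right); dashed lines mark a 2-fold difference. Points beyond the lines belong to genes below 2 CPM (Nap1l5, Nnat and Kcnq1 left, Plagl1 right), and Phlda2 at 0.92 on the right is the widest among abundant genes.

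Of 26 listed genes that set or guard imprints, 24 were tested. Zfp57 and Dnmt3b fell, Ezh2 rose and 21 did not pass a threshold that 6.17% of all tested genes passed. Zfp57, whose product protects imprints as described above, had 19.5 and 20.1 CPM in FLAG-Lhx1 against 44.7 and 26.7 CPM in FLAG-Lhx1-mt (log2 fold -0.85 ± 0.22, SE, edgeR adjusted p = 0.0344). FLAG-Lhx1-mt replicate 1 stood high, and without it the fold was -0.44 and the call was lost. Upper-quartile scaling and limma-voom lost it as well. Dnmt3b, a methyltransferase that places new DNA methylation, had 363 and 257 CPM against 520 and 711 CPM (-0.99 ± 0.19, adjusted p = 0.00607). Ezh2, the enzyme of Polycomb repression, rose by 0.50 ± 0.14 (adjusted p = 0.0456), a call that ended in 5 of 12 other settings, among them those that dropped either FLAG-Lhx1 embryo (0.41 for replicate 1, 0.57 for replicate 2) or, of the altered form, replicate 2 (0.47). Dnmt1 and Uhrf1, which copy methylation at replication, and Trim28, the partner of ZFP57, were not called (adjusted p = 0.903, 0.812 and 0.646).

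Of 38 further imprinted genes listed beside the members, 35 matched and 28 were tested. None rose, and Asb4 and H13 fell. Over all tested genes, 2.62% were called higher and 3.55% lower. Asb4, a maternally expressed gene near Peg10, had 21.9 and 22.3 CPM in FLAG-Lhx1 against 45.2 and 51.9 CPM in FLAG-Lhx1-mt, tight within each group (log2 fold -1.14 ± 0.17, SE, edgeR adjusted p = 0.0012). The median log2 fold of these 28 genes was 0.05.

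Each embryo gave 21267116 to 30434442 counts, so 3 counts are worth 0.0959 to 0.153 CPM, a floor that covers counting error alone. The correlation across genes of both embryos in a group was 0.982 (FLAG-Lhx1) and 0.978 (FLAG-Lhx1-mt) in log2 CPM. Chi-square per degree of freedom between them was 47.3 and 30.6, so they are not 1 library deposited again. Xist, the RNA of the silenced X, measured 29.4 and 1.93 CPM (FLAG-Lhx1) and 2.66 and 14.5 CPM (FLAG-Lhx1-mt). The Y-linked Eif2s3y was at 2.79 and 14.4 CPM and at 15.8 and 4.28 CPM, lower where Xist was higher. Another Y-linked gene, Ddx3y, was at 12.9 and 14.7 CPM and at 18.6 and 2.91 CPM, nearly equal in the FLAG-Lhx1 embryos, and Xist and Y-linked counts were present in all 4 embryos.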

How the data were processed

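RNA was sequenced from 4 single embryos. Per the labels' protocols, libraries followed Geo-seq with 10 cycles of pre-amplification and 0.5 ng of cDNA into Nextera XT, read as 100 bp pairs, with no molecular identifiers. The deposited values are raw counts of reads for each Ensembl gene ID, whole numbers in every file. STAR, Subread with featureCounts, and the builds GRCm38 and mm10 appear in the submitters' processing notes; the sources used here give no versions, annotation release or strandedness, and without strand a gene and an overlapping gene cannot be told apart. GENCODE vM21 (GRCm38) named 37693 IDs (96.2%).

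Members and lists were chosen with earlier results of these data known; parental classes and lists come from general knowledge. Genes were filtered with filterByExpr (minimum count 10, total 15) and scaled by TMM, and groups compared with edgeR 4.0.16 (R 4.3.3), group only, at a Benjamini-Hochberg adjusted p under 0.05 over all tested genes. A positive log2 fold means higher in FLAG-Lhx1, with standard errors derived from the F statistic. p-values rest on 2 embryos a group (residual degrees of freedom 2, prior 13.4). Every member is accounted for, with values per embryo for those called or with a mean of at least 50 CPM; others, and all ratios of 2 genes, were picked after their values were seen. Levels per kilobase use the union of annotated exons. The test was checked on simulated data. DESeq2 1.42.0 and limma 3.58.1 served as alternatives. The primitive blood marker list is not reported in full here.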

Additional observations from a re-analysis of the deposited data

How the results depend on the processing

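Of the 6 called members, Cdkn1c, Igf2 and Meg3 were called in all 12 other settings, and all 6 kept their direction. The number of genes called overall was 521 to 1648 with 1 embryo left out, that of members called higher 2 to 9 and that of members called lower 2 to 5; with no count filter 4 members were called lower. The maternal median log2 fold was -0.34 to 0.00 with 1 embryo left out. The paternal median was 0.22 with upper-quartile scaling, 0.12 with library totals only, 0.11 with no count filter and 0.12 to 0.22 with 1 embryo left out. The replicate numbers name samples and are not known to pair them (correlation of same-numbered deviations 0.0156). A replicate block gave 1138 calls in all, 5 members higher and 2 lower, and added Grb10.

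The only log2 folds that changed sign belonged to members not called in the comparison as reported, and the cause was not tested. With upper-quartile scaling Zdbf2 was at 0.05. With library totals only Zim1 was at -0.02 and Airn at -0.01, and with no count filter Zim1 at -0.04. The replicate block gave -0.24 for Nnat and 0.00 for Zdbf2, and limma-voom -0.20 for Nnat and -0.01 for Airn. Offsets for length and GC content gave -0.24 for Zim1, -0.03 for Impact, 0.04 for Mcts2, -0.01 for Inpp5f and -0.24 for Ube3a. With 1 embryo left out, log2 folds ran from -0.73 to 0.05 for Mirg, -0.35 to 0.56 for Zim1, -0.04 to 0.88 for Phlda2, -0.21 to 0.68 for Dlk1, -0.25 to 0.51 for Peg10 and -0.70 to 0.05 for Magel2. They ran from -1.70 to 0.86 for Nnat, -0.23 to 0.34 for Impact, -0.44 to 0.43 for Airn, -0.28 to 0.08 for Mcts2, -0.20 to 0.20 for Zdbf2 and -0.04 to 0.31 for Ube3a. For Nap1l5, FLAG-Lhx1 replicate 2 had 0 counts, so its fold without FLAG-Lhx1 replicate 1 has no exact size. DESeq2 gave no adjusted p for 3 of the 42 named genes. With 1 embryo left out, the lone embryo of a group is assumed to vary like the others.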
